A study of Mus musculus with 27 samples.

Results

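The 10 genes described here encode ABC efflux transporters, membrane pumps that hydrolyse ATP to move bile constituents, conjugates and drugs out of cells. They were chosen by name, with earlier results of these data known. They comprise Abcc2, Abcc3, Abcc4, Abcc6, Abcb11, Abcb4, Abcb1a, Abcg2, Abcg5 and Abcg8, which are 10 of the 21823 genes in the expression table. All 10 reached an FPKM (fragments per kilobase of transcript and per M mapped reads, with M for the prefix mega) of at least 1 in at least 3 libraries, the minimum that 12952 genes passed for testing. Liver RNA came from female wild-type mice (WT), labelled C57BL/6 and named C57BL/6N in the study's methods, that were non-pregnant (NP), at 8 days post coitum (dpc8) or at 16 days post coitum (dpc16), and their age is not in the labels. No group carried a transgene or received a treatment according to the labels. From frozen sections, lobular zones 1, 2 and 3 were cut out by laser microdissection, which collects chosen areas under a microscope, and 3 libraries were sequenced for each of the 9 groups of stage and zone. The labels number the libraries but do not say whether they came from separate mice. The study's legends call the zone data 3 independent experiments, and its methods state in general that experiments used different mice. Which zones share a mouse is not stated. The p-values measure the spread between these libraries, which may in part be technical.

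Bile is formed when hepatocytes pump bile salts, phospholipid, sterols and conjugates across their apical membrane into the canaliculus, the narrow channel between neighbouring cells. Other pumps sit in the basolateral membrane and return bile salts and conjugates to the blood, a route known to gain weight when canalicular export is impaired. Blood flows from the portal side of the lobule (zone 1) to the central vein (zone 3), and many hepatocyte genes are graded along this axis. The canalicular group comprises Abcb11 (the bile salt export pump), Abcb4 (the phospholipid floppase), Abcc2 (the pump for glucuronide and glutathione conjugates, MRP2), Abcg5 and Abcg8 (half-transporters that together export cholesterol and plant sterols), Abcg2 (breast cancer resistance protein) and Abcb1a (a P-glycoprotein). Abcc3 (MRP3), Abcc4 (MRP4) and Abcc6 are basolateral. Abcc6 is best known for the release of ATP from hepatocytes, which limits calcification elsewhere in the body.

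On the GRCm38 (mm10) assembly, the annotation places Abcc3 on the minus strand at chr11:94343295-94392997, Abcc4 on the minus strand at chr14:118482692-118706219 and Abcc6 on the minus strand at chr7:45967555-46030302. Abcb11 lies on the minus strand at chr2:69238282-69342616 and Abcc2 on the plus strand at chr19:43782192-43840740. Abcb4 and Abcb1a share chromosome 5 and the plus strand, at chr5:8893717-8959231 and chr5:8660077-8748575. Abcg2 is at chr6:58584523-58695676 on the plus strand. Abcg5 (chr17:84658234-84683011, minus strand) and Abcg8 (chr17:84676302-84700333, plus strand) are neighbours in opposite orientation whose annotated spans share 6710 bases, and since the strand setting of the counting is not given in the sources used here, reads in that stretch may be split between them with uncertainty. Abcb1a has a close paralog, Abcb1b, and its level rests on uniquely mapped reads. How far the paralog affects this level was not tested.

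RefSeq promoter windows of 300 bases, from 250 bases before to 50 after an annotated start, matched 8 of the 10 genes with 12 windows (GRCm38.p6). The window of Abcg8 is shown because it shares 209 bases with that of Abcg5, whose start lies 110 bases away on the other strand, and because the levels of both genes moved together across libraries. Its start is 6819 bases from the outermost annotated start of Abcg8, for which RefSeq has the other window of the gene. Those of Abcc2 and Abcb11 are shown as abundant canalicular pumps whose windows hold a half-site, and that of Abcc4 as one of the 2 genes called between zones. The start of the window for the other, Abcb1a, is 92986 bases from the annotated start of the gene, and this window is not shown. Capitals mark a match to a GATA factor motif in Abcg8, to a nuclear receptor half-site in Abcc2 and Abcb11, and to the antioxidant response element in Abcc4 (on the opposite strand in all but Abcc2), and each sequence is written 5′ to 3′ along the strand of the gene.
Abcg8, chr17:84682871-84683170, plus strand: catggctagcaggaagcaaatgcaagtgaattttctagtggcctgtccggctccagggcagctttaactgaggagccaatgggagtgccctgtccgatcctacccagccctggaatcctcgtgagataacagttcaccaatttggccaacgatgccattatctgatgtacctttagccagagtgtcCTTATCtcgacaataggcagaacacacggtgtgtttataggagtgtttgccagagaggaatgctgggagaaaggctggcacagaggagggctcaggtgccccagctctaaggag
Abcc2, chr19:43782058-43782357, plus strand: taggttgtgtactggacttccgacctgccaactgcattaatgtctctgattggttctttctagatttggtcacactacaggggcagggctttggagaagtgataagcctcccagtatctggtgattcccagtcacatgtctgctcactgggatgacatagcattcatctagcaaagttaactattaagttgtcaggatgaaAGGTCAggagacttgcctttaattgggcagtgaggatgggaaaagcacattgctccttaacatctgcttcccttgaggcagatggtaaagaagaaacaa
Abcb11, chr2:69342567-69342866, minus strand: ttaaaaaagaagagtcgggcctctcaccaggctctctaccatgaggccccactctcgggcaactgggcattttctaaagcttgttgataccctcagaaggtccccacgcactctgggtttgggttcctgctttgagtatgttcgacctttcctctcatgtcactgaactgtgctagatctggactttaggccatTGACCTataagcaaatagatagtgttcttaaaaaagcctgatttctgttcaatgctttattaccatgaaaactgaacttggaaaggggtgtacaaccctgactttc
Abcc4, chr14:118706170-118706469, minus strand: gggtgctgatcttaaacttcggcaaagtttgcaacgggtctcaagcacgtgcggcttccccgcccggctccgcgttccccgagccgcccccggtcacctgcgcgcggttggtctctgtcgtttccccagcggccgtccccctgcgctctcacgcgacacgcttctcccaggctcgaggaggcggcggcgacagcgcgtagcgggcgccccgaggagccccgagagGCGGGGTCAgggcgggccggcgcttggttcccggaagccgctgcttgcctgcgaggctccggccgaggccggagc

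The motifs were searched as letters on both strands. AGGTCA, the half-site bound by many nuclear receptors, was present in 4 of the 12 windows (Abcb11, Abcg2 and Abcc2), against 16.3% of 32851 promoter windows of the same length. GATAAG, which is bound by GATA factors, was found in 5 windows (Abcb4, Abcg2, Abcg5, Abcg8 and Abcc2) against 7.44% of all windows, and the windows of Abcg5 and Abcg8 hold the same match in their shared bases. TGACNNNGC, the core of the antioxidant response element, was found in 4 windows (Abcb1a, in the distant window named above, both windows of Abcc4, and Abcc2) against 12.4%. Its first letters also open the reverse complement of AGGTCA, so that matches to both motifs can overlap. The inverted repeat AGGTCANTGACCT, a form bound by the bile acid receptor, was in none of the 12 windows and in 0.00913% of all windows. These matches are descriptions of letters in a short window.

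Libraries summed to between 499866 and 988500 FPKM, and low values fell on steps that correspond to an estimated depth of 7.53 to 33.3 M reads, with a median of 16.5 M. Since the columns share a common median, this may be an effective depth after scaling and not the number of mapped reads. All 6 hepatocyte markers were above 0 in every library. Averaged over the stages, 7 of 7 periportal markers were higher and 8 of 8 pericentral markers lower in zone 1 than in zone 3, as the zone labels state. In 6 libraries labelled female (replicate 1 of zone 1 at both NP and dpc8, replicate 2 of NP zone 3 and of dpc8 zone 2, and replicate 3 of zones 2 and 3 at dpc16), 4 Y-linked genes summed to between 7.92 and 23.2 FPKM, against at most 2.97 in the other 21. These libraries, called Y-positive below, also held the highest sums of 10 connective tissue and smooth muscle markers, 990 to 4629 FPKM, against 85.7 to 579 FPKM in the others. Of the transporters, Abcc2 and Abcc6 were below both other libraries of their group in 6 of the 6 Y-positive libraries, Abcc3, Abcg5 and Abcg8 in 5, and Abcb11 and Abcb4 in 4, whereas Abcc4 was above both others in 5. The part of these libraries in the results was not tested, and values without them are given beside several of the results. In bulk tissue, fewer cells of a type and less RNA per cell cannot be told apart.

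Abcc3 was the member whose level differed most between stages. It lay within one range in NP and dpc8 livers and was far below it at dpc16 in each zone. In NP livers, the 3 libraries of zone 1 had Abcc3 levels of 61.8, 79.4 and 66.5 FPKM, those of zone 2 had 112, 88.3 and 74.2 FPKM, and those of zone 3 had 121, 61.1 and 64.1 FPKM. At dpc8, the levels were 36.0, 121 and 137 FPKM in zone 1, 60.1, 88.3 and 117 FPKM in zone 2, and 69.6, 146 and 122 FPKM in zone 3. At dpc16, they were 7.79, 8.15 and 9.55 FPKM in zone 1, 7.92, 4.58 and 1.65 FPKM in zone 2, and 10.03, 12.5 and 2.08 FPKM in zone 3. The highest dpc16 library was thus below the lowest NP or dpc8 library, whereas NP and dpc8 overlapped in every zone. Both dpc16 libraries at the low end, and the lowest dpc8 library, were Y-positive. Without the Y-positive libraries, Abcc3 ranged from 64.1 to 121 FPKM in NP, from 60.1 to 146 FPKM in dpc8 and from 4.58 to 12.5 FPKM in dpc16 livers.

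**Figure D1:**
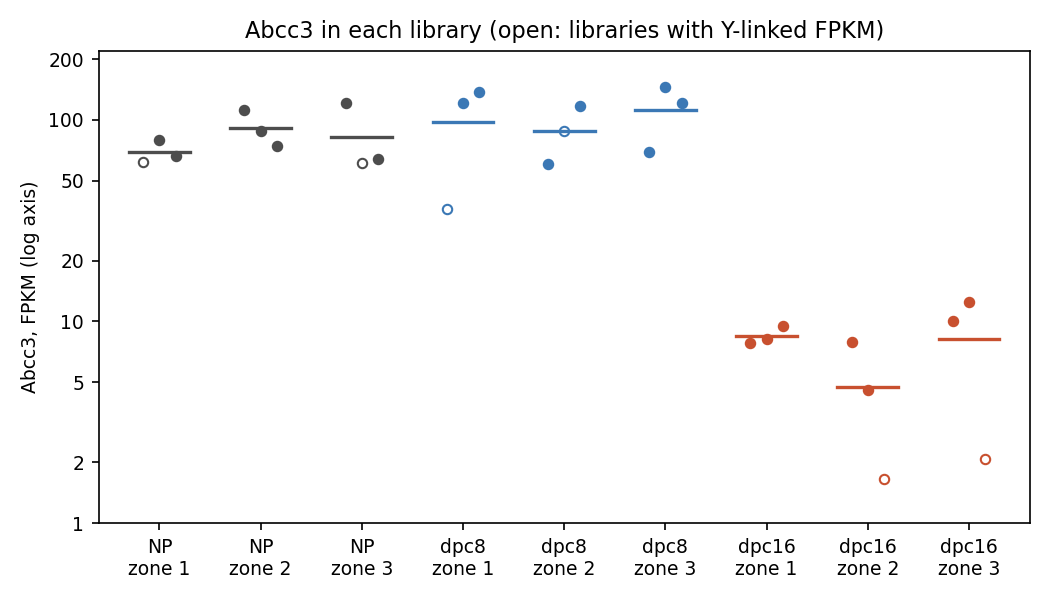
Abcc3 in each of the 27 libraries, in FPKM on a log axis, by stage and zone. Points are libraries (open points are Y-positive), and bars are group means. The 9 dpc16 libraries, between 1.65 and 12.5 FPKM, sit below all NP and dpc8 libraries, of which the lowest is at 36.0 FPKM.

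Ordered by group mean, Abcc3 ran from dpc8 zone 3 (112 ± 39.0 FPKM, SD, n = 3) through dpc8 zone 1 (97.9 ± 54.3), NP zone 2 (91.5 ± 19.1), dpc8 zone 2 (88.4 ± 28.4) and NP zone 3 (82.0 ± 33.5) to NP zone 1 (69.2 ± 9.12). The ranges of neighbours in this order overlapped. Then came dpc16 zone 1 (8.50 ± 0.929 FPKM), dpc16 zone 3 (8.21 ± 5.46) and dpc16 zone 2 (4.72 ± 3.14), whose ranges overlapped too. The step between NP zone 1 and dpc16 zone 1 was the only one without overlap.

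The stages were compared with limma on log2(FPKM + 1), two-sided, with Benjamini-Hochberg adjustment over the 12952 genes. Fold changes are on this scale, which understates the change of low genes. In zone 1, Abcc3 was 7.38-fold lower at dpc16 than in NP livers (log2 fold change -2.88, SE 0.52, adjusted p = 0.00348). In zone 2 it was 17.9-fold lower (log2 fold change -4.16, SE 0.52, adjusted p = 5.37e-05). In zone 3 it was 10.2-fold lower (log2 fold change -3.35, SE 0.52, adjusted p = 0.000707). Abcc3 was in each zone the 1 member of the 10 that passed, against 1.37%, 2.66% and 1.32% of all genes tested in zones 1, 2 and 3. The call in zone 3 was lost when only the 6 libraries compared were fitted (adjusted p = 0.099). Against dpc8, which shares the dpc16 libraries with these comparisons, Abcc3 was the 1 member called in each zone, with log2 fold changes of -3.17 in zone 1 (adjusted p = 0.0014), -4.08 in zone 2 (adjusted p = 8.51e-05) and -3.81 in zone 3 (adjusted p = 0.000168). Of all genes, 2.01%, 1.51% and 1.37% were called in these comparisons. With only the 6 libraries of zone 2, the adjusted p against dpc8 was 0.112.

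Averaged over the zones, with the 3 zones of one stage and number taken as 1 unit (3 units a stage), Abcc3 fell 11.1-fold from NP to dpc16 (log2 fold change -3.47, SE 0.376, adjusted p = 0.00222) and was 12.9-fold lower at dpc16 than at dpc8 (log2 fold change -3.69, SE 0.376, adjusted p = 0.00194). Without the Y-positive libraries, 4 units remained, 1 of NP, 1 of dpc8 and 2 of dpc16, so that the lone units are assumed to vary like those of dpc16 and a lost call says nothing about stability. No gene of the 12952 then passed (2572 and 2515 had an unadjusted p under 0.05), with Abcc3 at log2 fold changes of -2.91 and -3.78 (adjusted p = 0.158 and 0.159). Within single zones Abcc3 passed without these libraries. The fall did not differ detectably between zones 1 and 3 (difference of log2 fold changes 0.47, 95% interval -1.05 to 2.00, adjusted p = 0.993). From NP to dpc8 Abcc3 did not pass the test (log2 fold change 0.22, 95% interval -0.62 to 1.07, adjusted p = 1).

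Markers of other cell types and of hepatocytes were measured beside these stage differences. In the averages from NP and from dpc8 to dpc16, none of 10 connective tissue and smooth muscle markers (median log2 fold changes -0.58 and -0.89), 6 Kupffer cell (liver macrophage) markers (-0.80 and -0.73), 7 endothelium markers (-0.12 and 0.38) and 6 cholangiocyte (bile duct cell) markers (-0.43 and -0.04) was called. Of the 6 hepatocyte markers (medians 0.18 and 0.40), Ttr was lower from NP (-1.49) and Apoa1 higher from dpc8 (2.30). Of the 7 periportal markers (-0.62 and -0.98), Hsd17b13 was lower from dpc8 (-1.30), and of the 8 pericentral markers (-0.40 and -0.09), Cyp1a2 was (-1.88). Of all genes tested, 3.08% were called in the average from NP and 2.14% in that from dpc8.

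Within zones, the lists differed in direction. No connective tissue and smooth muscle marker was called. The medians of that list from NP to dpc16 were -1.74, 0.5 and -0.37 in zones 1, 2 and 3. From dpc8 to dpc16 its medians were -2.12, -1.39 and 0.6. Among Kupffer cell markers, 1 of 6 was lower from NP to dpc16 in zone 2 (Clec4f, log2 fold change -1.32, list median -1.20, 2.66% of all genes called), and 3 of 6 (Cd5l, C1qa and Clec4f, list median -1.62) were lower from dpc8 to dpc16 in zone 3, where 1.37% of all genes were called. The Kupffer cell list summed to 30.2 to 67.3 FPKM in dpc16 zone 3 and to 137 to 195 FPKM in dpc8 zone 3. In the same comparison 3 of 7 periportal markers (Hal, Cyp2f2 and Hsd17b13) were lower, whereas 1 of 7 (Aldh1b1, 1.84) was higher from dpc8 in zone 1. Among pericentral markers, 1 of 8 was lower from NP in zone 2 (Cyp2e1, -1.61), and from dpc8 Cyp1a2 was lower (-2.48) and Glul higher (1.67) in zone 1 and Slc1a2 higher (1.94) in zone 2. Of the 7 endothelium markers, 1 was called, Vwf, which was higher at dpc16 than in NP livers in zone 2 (3.46, list median -0.46) and than at dpc8 in zones 1 and 2 (3.56 and 3.92, list medians 0.68 and 0.49). Among hepatocyte markers, Ttr was lower from NP in zones 2 and 3 (-1.94 and -1.53), and from dpc8 Apoa1 was higher in zones 1 and 2 (3.16 and 2.04) and Alb in zone 1 (1.87). Of all genes tested, 1.37%, 2.66% and 1.32% were called from NP in zones 1, 2 and 3, and 2.01%, 1.51% and 1.37% from dpc8. The part of these cells in the differences of the transporters was not tested.

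Relative to the other pumps, the Abcc3 level was 0.310 to 0.804 times that of Abcc2 in the 9 NP libraries and 0.261 to 0.887 times in the 9 dpc8 libraries, but 0.0188 to 0.0638 times in the 9 dpc16 libraries. Its ratio to Abcb11 went from 0.306 to 0.912 in NP and 0.389 to 0.734 in dpc8 to between 0.0268 and 0.121 at dpc16. As a share of the summed FPKM of the 10 genes, Abcc3 took 9.75% to 15.98% in NP, 8.85% to 17.6% in dpc8 and 0.646% to 2.21% in dpc16 libraries. These ratios within a library do not depend on how libraries are scaled, and for Abcc3 the dpc16 range lay apart from both others. Abcc2 took 15.9% to 31.5%, 19.8% to 33.8% and 25.6% to 35.9% of the sum at the 3 stages, with overlap.

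**Figure D2:**
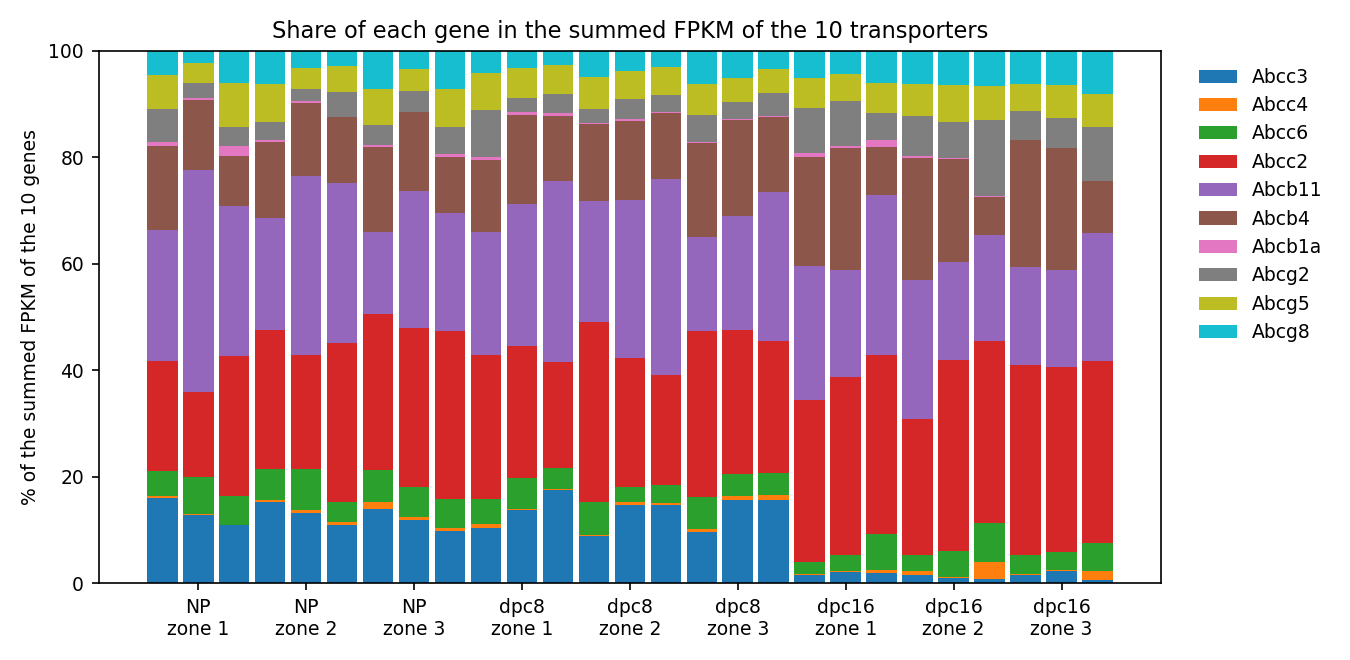
Share of each gene in the summed FPKM of the 10 transporters, in percent, with 1 bar for each library and 3 bars for each group of stage and zone. Abcc3, at the bottom of each bar, takes 9.75% to 15.98% in NP and 0.646% to 2.21% in dpc16 libraries, and Abcc2, Abcb11 and Abcb4 make up most of the rest.

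Abcc6, the other basolateral pump that differed between stages, had levels of 18.5, 43.6 and 33.2 FPKM in zone 1, 42.3, 51.6 and 24.8 FPKM in zone 2, and 52.0, 29.9 and 36.0 FPKM in zone 3 of NP livers. At dpc8, they were 16.2, 52.2 and 30.8 FPKM in zone 1, 41.2, 16.9 and 26.1 FPKM in zone 2, and 44.7, 36.7 and 32.5 FPKM in zone 3. At dpc16, they were 12.4, 12.2 and 33.5 FPKM in zone 1, 15.1, 22.2 and 14.2 FPKM in zone 2, and 22.9, 19.3 and 16.5 FPKM in zone 3. In zone 1 the stages overlapped through 1 dpc16 library, at 33.5 FPKM, and in zones 2 and 3 all dpc16 libraries were below all NP libraries. Averaged over the zones, Abcc6 fell 1.92-fold from NP to dpc16 (log2 fold change -0.94, SE 0.149, adjusted p = 0.0124) and was 1.70-fold lower at dpc16 than at dpc8 (log2 fold change -0.76, SE 0.149, adjusted p = 0.0371). Abcc3 and Abcc6 were the 2 of 10 members called in each average, both lower, against 3.08% of all genes called from NP to dpc16 and 2.14% from dpc8 to dpc16. The direction was kept in all alternatives, and the call was lost in 5 of 16 against NP and in 7 of 16 against dpc8. These included the fits without NP replicate 2, dpc16 replicate 1 or dpc16 replicate 2 against NP (adjusted p = 0.0553, 0.0564 and 0.0606), and without dpc16 replicate 1 or 2 or any of the dpc8 replicates against dpc8 (adjusted p up to 0.147). Without the Y-positive libraries, where NP and dpc8 are left with 1 unit each as for Abcc3, the Abcc6 log2 fold changes were -0.84 and -0.78 (adjusted p = 0.187 and 0.189). Within single zones the nearest was zone 2 (log2 fold change -1.12, SE 0.423, adjusted p = 0.168).

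Abcc4, which exports cyclic nucleotides and bile salts to the blood, was low in zone 1 and higher in zone 3 of NP and dpc8 livers. In NP livers its levels were 1.32, 1.28 and 1.11 FPKM in zone 1, 2.90, 3.23 and 3.27 FPKM in zone 2, and 10.1, 2.70 and 4.36 FPKM in zone 3. At dpc8, they were 1.99, 1.62 and 1.41 FPKM in zone 1, 1.98, 3.25 and 2.59 FPKM in zone 2, and 4.24, 7.17 and 7.37 FPKM in zone 3. At dpc16, they were 1.31, 1.08 and 2.73 FPKM in zone 1, 3.99, 0.962 and 6.22 FPKM in zone 2, and 0.673, 1.30 and 5.49 FPKM in zone 3. Zones 1 and 3 did not overlap at NP or dpc8 and overlapped at dpc16, where the highest libraries of zones 2 and 3 were Y-positive. Averaged over the stages, Abcc4 was 2.00-fold lower in zone 1 than in zone 3 (log2 fold change -1.0, SE 0.268, adjusted p = 0.0266). By stage, the log2 fold change was -1.43 in NP (adjusted p = 0.214), -1.41 in dpc8 (adjusted p = 0.162) and -0.16 in dpc16 livers (adjusted p = 0.968), none of which passed. With the replicate number as a block, the dpc8 difference passed (adjusted p = 0.0397). Averaged over the stages, 2 of 10 connective tissue and smooth muscle markers were lower and 0 higher in zone 1 (list median 0.53). Of all genes, 5.59% were called in this average. The part of these cells in the Abcc4 difference was not tested.

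The averaged zone call of Abcc4 was lost when 1 of 6 libraries was left out: NP zone 3 replicate 1, dpc8 zone 3 replicate 2 or 3, dpc16 zone 1 replicate 1 or 2, or dpc16 zone 3 replicate 3 (log2 fold changes -0.97 to -0.81, adjusted p = 0.0504 to 0.0649). From NP to dpc16, the zone 3 difference of Abcc4 was -1.05 on the log2 scale (SE 0.463, adjusted p = 0.373), and without the Y-positive libraries it was -1.97 (SE 0.429, adjusted p = 0.0171). Against dpc8 it was -1.28 (adjusted p = 0.205) with them and -1.86 (adjusted p = 0.0119) without them. The only Y-positive library of zone 3 at dpc16 was the one at 5.49 FPKM, and the NP library left out was at 2.70 FPKM. The change from NP to dpc16 did not differ between zones 1 and 3 past the threshold (difference of log2 fold changes 1.27, 95% interval -0.09 to 2.63, adjusted p = 0.993).

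**Figure D3:**
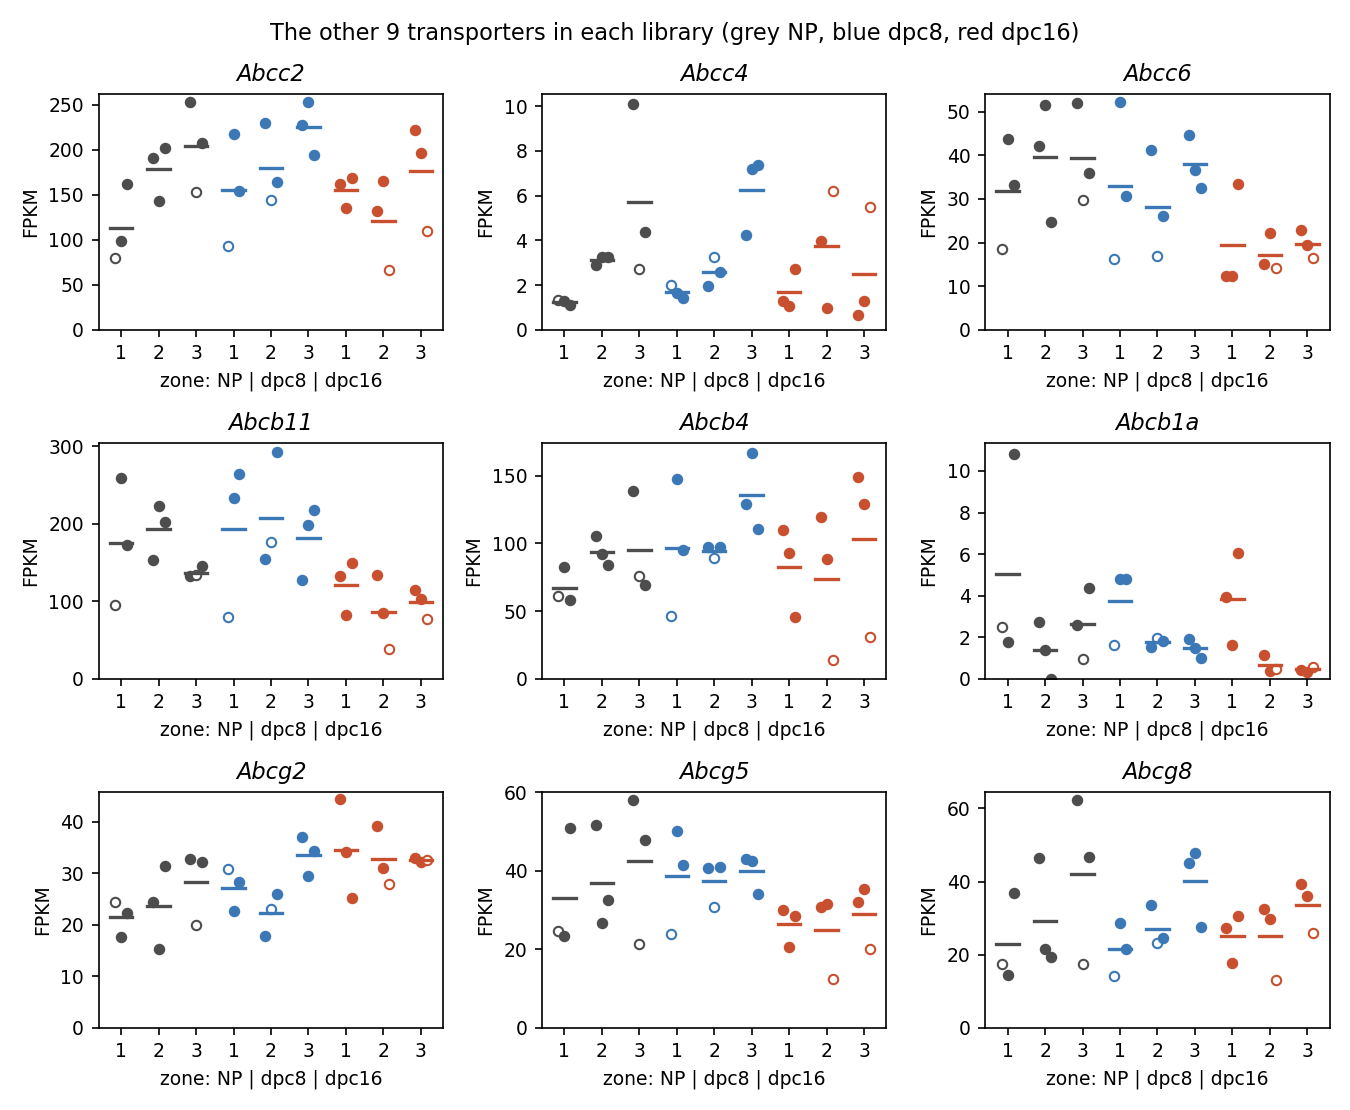
FPKM of the other 9 transporters in each library, on linear axes from 0, by zone within NP (grey), dpc8 (blue) and dpc16 (red). Points are libraries (open points are Y-positive) and bars are group means. Abcc6 has its 3 lowest group means at dpc16, Abcc4 is higher in zone 3 than in zone 1 at NP and dpc8, and Abcb1a has its highest group mean of each stage in zone 1.

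Of the canalicular pumps, none passed between stages. Abcb11 had 95.2, 259 and 173 FPKM in zone 1, 154, 223 and 203 FPKM in zone 2, and 132, 133 and 145 FPKM in zone 3 of NP livers. At dpc8, it had 80.1, 234 and 265 FPKM in zone 1, 155, 177 and 292 FPKM in zone 2, and 128, 198.7 and 218 FPKM in zone 3. At dpc16, it had 133, 82.3 and 150 FPKM in zone 1, 135, 84.5 and 38.7 FPKM in zone 2, and 115, 104 and 77.5 FPKM in zone 3. In zones 2 and 3, all dpc16 libraries of Abcb11 were below all NP and dpc8 libraries. In zone 1 they overlapped through the NP and dpc8 libraries at 95.2 and 80.1 FPKM, which were Y-positive. Without these, Abcb11 in zone 1 ranged from 173 to 259 FPKM in NP and from 234 to 265 FPKM in dpc8 livers. The dpc16 libraries of zone 1, at 82.3 to 150 FPKM, were below both of these ranges. In zone 2, the log2 fold change from NP to dpc16 was -1.31 (SE 0.446, adjusted p = 0.125). Averaged over the zones, it was -0.75 (SE 0.318, adjusted p = 0.277) from NP and -0.92 (SE 0.318, adjusted p = 0.193) from dpc8. It passed in several alternatives, among them zone 2 with the connective tissue markers as a covariate (log2 fold changes -1.22 from NP and -1.57 from dpc8, adjusted p = 0.0262 and 0.00506).

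Abcg2, which exports urate and sulphated conjugates, was the 1 member with a value above 0 from NP to dpc16 averaged over the zones. Its levels ranged from 15.4 to 32.7 FPKM in NP (median 24.3), from 17.8 to 37.0 FPKM in dpc8 (median 28.2) and from 25.2 to 44.4 FPKM in dpc16 libraries (median 32.5). The ranges overlapped, and the averaged log2 fold change was 0.45 (SE 0.202, adjusted p = 0.307). In zone 1, the 3 NP libraries at 24.5, 17.7 and 22.3 FPKM were below the 3 dpc16 libraries at 44.4, 34.1 and 25.2 FPKM (log2 fold change 0.64, SE 0.254, adjusted p = 0.313). Abcg2 did not pass in these main fits. It passed with array weights in zones 1 and 2 (0.79 and 0.73, adjusted p = 0.0475 and 0.0459). The average passed with the 27 libraries as separate units (0.45, adjusted p = 0.0473).

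Abcb4 had a median of 82.3 FPKM (58.4 to 139) in NP, 97.7 FPKM (46.5 to 167) in dpc8 and 93.0 FPKM (13.9 to 149) in dpc16 libraries. The 2 lowest dpc16 values, 13.9 and 31.1 FPKM, were Y-positive libraries, and without these the dpc16 range was 45.6 to 149 FPKM. Abcc2 was among the most abundant pumps, with a median of 161 FPKM (79.9 to 253) in NP, 194 FPKM (93.4 to 253) in dpc8 and 162 FPKM (66.8 to 222) in dpc16 libraries. Without the Y-positive libraries, the Abcc2 ranges were 98.8 to 253, 155 to 253 and 132 to 222 FPKM at the same stages. From NP to dpc16, averaged over the zones, the log2 fold change was -0.12 for Abcc2 (95% interval -0.62 to 0.38) and -0.22 for Abcb4 (95% interval -1.33 to 0.88). For both genes the stages overlapped throughout.

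The sterol half-transporters Abcg5 and Abcg8 were at similar levels per length. Abcg5 ranged from 21.4 to 57.9 FPKM in NP, from 24.0 to 50.2 FPKM in dpc8 and from 12.4 to 35.3 FPKM in dpc16 libraries. Abcg8 ranged from 14.4 to 62.1, from 14.2 to 47.7 and from 13.0 to 39.3 FPKM at the same stages. Without the Y-positive libraries, the Abcg5 ranges were 23.4 to 57.9, 34.1 to 50.2 and 20.6 to 35.3 FPKM. Those of Abcg8 were then 14.4 to 62.1, 21.5 to 47.7 and 17.8 to 39.3 FPKM. Neither passed between stages, with averaged log2 fold changes from NP to dpc16 of -0.43 for Abcg5 (95% interval -1.01 to 0.14) and -0.05 for Abcg8 (95% interval -0.66 to 0.56). The ratio of Abcg5 to Abcg8 had a median of 1.40 in zone 1 (0.934 to 1.92), 1.21 in zone 2 (0.946 to 1.68) and 0.954 in zone 3 (0.770 to 1.24), so that the ranges overlapped. Deviations of both genes from their group means followed each other over the 27 libraries (Pearson r = 0.947), a description of libraries that share depth and the Y-positive set, for genes whose annotated spans overlap as given above with the shared promoter window.

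Across all 10 members, the median log2 fold change from NP to dpc16 averaged over the zones was -0.35, with 9 members below 0, against a median of -0.01 over all genes tested. From dpc8 to dpc16 it was -0.52, with 9 below 0, against -0.01. With scaling to the FPKM sum, these medians were -0.72 against -0.33 over all genes from NP, and -0.95 against -0.38 from dpc8. At dpc8, by contrast, 0 of 10 members passed against NP in zone 1, 2 or 3 or averaged with limma, and 0 had an unadjusted p under 0.05 in any of these comparisons. Of all genes, 0.0309%, 0.00772% and 0.0154% were called in zones 1, 2 and 3 and 0.0154% in the average, and 3.13%, 5.06%, 2.74% and 3.17% had an unadjusted p under 0.05. The averaged log2 fold changes of the members from NP to dpc8 lay between -0.18 (Abcc6) and 0.32 (Abcb4), with a median of 0.14, and the widest interval was that of Abcb4 (-0.78 to 1.42).

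**Figure D4:**
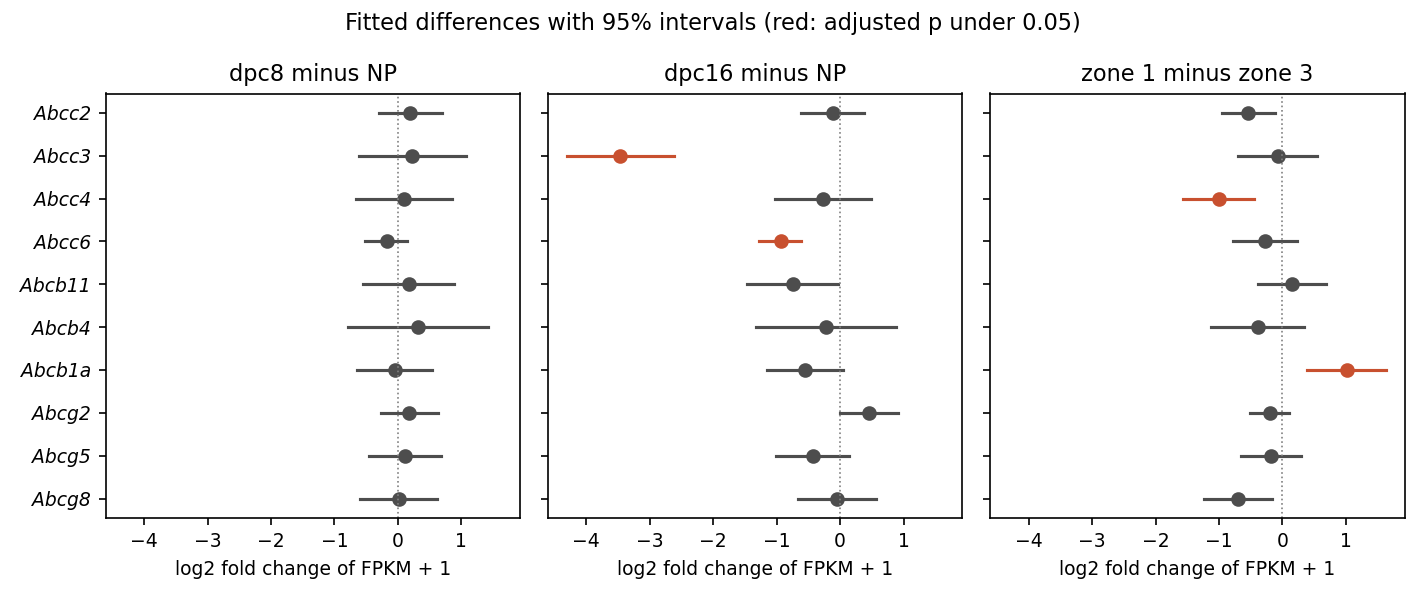
Fitted log2 fold changes of FPKM + 1 for the 10 members with 95% intervals, averaged over the zones (dpc8 minus NP and dpc16 minus NP) or over the stages (zone 1 minus zone 3), with the same axis in each panel. Red marks an adjusted p under 0.05: Abcc3 (-3.47) and Abcc6 (-0.94) from NP to dpc16, and Abcc4 (-1.0) and Abcb1a (1.01) between zones.

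The scaling of libraries changed how many members passed. The deposited columns share a common median, with median-ratio factors of 0.981 to 1.05, but their sums differ, and the 6 hepatocyte markers, Alb above all, summed to 46230 to 222400 FPKM at dpc16 against 31540 to 97830 FPKM in NP and 33080 to 66060 FPKM in dpc8 libraries. When each library was divided by its sum, the median of all genes shifted to -0.33 on the log2 scale from NP to dpc16 and to -0.38 from dpc8, and the calls from NP went from 192 higher and 207 lower to 124 higher and 1033 lower. On that scale Abcb11 (log2 fold change -1.15, adjusted p = 0.0332) and Abcg5 (-0.82, adjusted p = 0.0499) also passed from NP to dpc16, beside Abcc3 (-3.92, adjusted p = 0.000411) and Abcc6 (-1.33, adjusted p = 0.0107). Relative to the shift of all genes, Abcc3 had the largest difference of the 10 members under either scaling.

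Between zones, Abcb1a was the 1 member called with a higher level on the portal side, while the value of Abcb11 was also above 0 without passing. Abcb1a was the least abundant with Abcc4, at 2.48, 1.77 and 10.8 FPKM in zone 1, 2.75, 1.38 and 0 FPKM in zone 2, and 2.59, 0.935 and 4.35 FPKM in zone 3 of NP livers. At dpc8, it had 1.61, 4.80 and 4.81 FPKM in zone 1, 1.53, 1.95 and 1.84 FPKM in zone 2, and 1.92, 1.502 and 0.997 FPKM in zone 3. At dpc16, it had 3.92, 1.63 and 6.03 FPKM in zone 1, 1.15, 0.380 and 0.450 FPKM in zone 2, and 0.445, 0.343 and 0.579 FPKM in zone 3. Zone 1 was above zone 3 without overlap at dpc16, while both overlapped at NP and dpc8. Averaged over the stages, Abcb1a was 2.02-fold higher in zone 1 (log2 fold change 1.01, SE 0.299, adjusted p = 0.049). This call was lost in 20 of 27 alternatives, in all of which zone 1 stayed higher (log2 fold changes 0.80 to 1.52, adjusted p up to 0.16), including the replicate block (adjusted p = 0.056) and each of 13 fits that left out 1 library. The lowest value, 0.80, came without NP zone 1 replicate 3, the library at 10.8 FPKM. Cholangiocyte markers moved along the same axis. Of 6 that could be tested, 4 were higher in zone 1, against 5.59% of all genes called in either direction, and the list of 7 summed to 41.4 to 160 FPKM in zone 1 and 0.0884 to 92.2 FPKM in zone 3. In zone 1, Krt7, Krt19, Sox9, Epcam and Spp1 were above 0 in all 9 libraries, and Cftr and Tspan8 were listed at 0 in 2 and 1. In zone 3, Krt7, Krt19 and Epcam were listed at 0 in 7, 4 and 8 of 9 libraries, Cftr and Tspan8 in 8 and 7, and Sox9 and Spp1 in 1 each. The part of these cells in the Abcb1a difference was not tested.

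Abcb1a and Abcc4 were thus the 2 members of 10 called between zones 1 and 3 on average, 1 higher and 1 lower in zone 1, against 5.59% of all genes (350 higher and 374 lower, or 309 and 526 with scaling to the FPKM sum). Within NP, dpc8 and dpc16 livers, 0 of 10 members were called with limma, against 1.34%, 1.61% and 1.55% of all genes. An unadjusted p under 0.05 was found for 2, 1 and 1 of the 10, against 8.02%, 12.2% and 7.86% of all genes, so that the single members at dpc8 and dpc16 are near the share over all genes. The median log2 fold change of the members between zones 1 and 3 averaged over the stages was -0.24, with 8 of 10 below 0, against 0.04 over all genes. Next to the threshold were Abcg8 (log2 fold change -0.70, SE 0.257, adjusted p = 0.142) and Abcc2 (-0.54, SE 0.204, adjusted p = 0.159), both lower in zone 1. Without the Y-positive libraries both passed, Abcg8 at -0.80 (adjusted p = 0.0447) and Abcc2 at -0.52 (adjusted p = 0.0299). Both also passed with scaling to the FPKM sum, Abcg8 at -0.77 (adjusted p = 0.0449) and Abcc2 at -0.60 (adjusted p = 0.0122). Abcc2 ranged from 79.9 to 218 FPKM in zone 1 (median 155) and from 110 to 253 FPKM in zone 3 (median 207), and Abcg8 from 14.2 to 36.9 FPKM (median 21.5) and from 17.5 to 62.1 FPKM (median 39.3). The ranges overlapped for both.

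Abcc3 did not differ between zones past the threshold (averaged log2 fold change -0.07, 95% interval -0.70 to 0.55, adjusted p = 0.947), and neither did Abcb11 (0.15, 95% interval -0.38 to 0.69) or Abcb4 (-0.39, 95% interval -1.12 to 0.34). The change from NP to dpc16 was tested for a difference between zones 1 and 3, and 0 of 10 members passed with limma, against 0.054% of all genes. An unadjusted p under 0.05 was found for 0 of 10, against 3.16% of all genes. The differences were above 0 in all 10, with a median of 0.39 against -0.02 over all genes (0.07 against -0.31 with scaling to the FPKM sum), and all 10 rest on the same 12 libraries. Of these, NP zone 1 replicate 1, NP zone 3 replicate 2 and dpc16 zone 3 replicate 3 were Y-positive, and no library of dpc16 zone 1 was. The part of this imbalance was not tested.

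Among the members, levels of log2(FPKM + 1) over the 27 libraries were most alike for Abcc2 with Abcg8 (Pearson r = 0.801), Abcc2 with Abcg5 (0.800) and Abcg5 with Abcg8 (0.793). By these levels, Abcc3 was most like Abcb11 (r = 0.773, and 0.730 for deviations from group means) and Abcc6 (0.698, and 0.370). For deviations from group means, it was most like Abcb4 (0.794, against 0.499 for levels). The lowest value was that of Abcc6 with Abcg2 (-0.511). These are descriptions over libraries that share stage, zone and depth.

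Over all genes tested, the 5 most like Abcc3 over the 27 libraries were Slc17a2 (r = 0.965), Lipc (0.965), Adcy9 (0.925), Cyp4f15 (0.919) and Gpx1 (0.916). Lipc, the hepatic lipase, ranged from 72.5 to 184 FPKM in NP, from 76.2 to 194 FPKM in dpc8 and from 8.23 to 35.4 FPKM in dpc16 libraries. Slc17a2, a phosphate and anion carrier, ranged from 57.4 to 122, from 44.4 to 114 and from 6.11 to 24.6 FPKM. For these and for Cyp4f15 the dpc16 range lay below those of NP and dpc8, whereas Adcy9 (1.49 to 6.19 FPKM at dpc16, 5.05 to 10.5 FPKM in NP) and Gpx1 (579 to 1170 FPKM at dpc16, 1169 to 2828 FPKM in NP) overlapped with NP. The 5 genes were chosen for their likeness to Abcc3, so that these ranges are a description.

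Of the other ABC genes of families A, B, C and G, 22 of 32 could be tested. From NP to dpc16 averaged over the zones, 1 was higher and 1 lower, against 3.08% of all genes called, with a median log2 fold change of -0.16. Abca8a was 5.96-fold lower (log2 fold change -2.57, SE 0.216), and Abca17 was higher by 0.97 on the log2 scale (SE 0.162) from a level near 0. Between zones, Abcc9, a regulatory subunit of potassium channels, was called on average, lower in zone 1 (log2 fold change -1.33, SE 0.154), against 5.59% of all genes. No other gene of the list passed in these averages.

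The uptake carriers that feed these pumps were tested with canalicular scaffold and trafficking genes as a list of 19, of which 18 could be tested. From NP to dpc16 averaged over the zones, 3 were lower and 0 higher, against 3.08% of all genes called. Slco1b2, an organic anion uptake carrier, was 3.31-fold lower (log2 fold change -1.73, SE 0.237), Slc10a1, the sodium-dependent bile salt uptake carrier, 2.60-fold lower (-1.38, SE 0.290), and Slc9a3r1, a scaffold of apical transporters, 2.09-fold lower (-1.06, SE 0.216). The list median was -0.33. Between zones, 1 was higher and 3 lower in zone 1, against 5.59% of all genes called, with Slco1a1 lower by 24.2-fold (log2 fold change -4.60, SE 0.454), Slco1b2 by 6.00-fold (-2.58, SE 0.217) and Pdzk1 by 1.81-fold (-0.86, SE 0.254), and Slc51b, a subunit of the basolateral bile salt exporter, higher (0.98, SE 0.173).

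Of 15 regulators of these genes, 0 passed from NP to dpc16 averaged over the zones (median -0.20), among them Nr1h4, the bile acid receptor, Nr1i2, Nr1i3 and Nfe2l2. Between zones, where 5.59% of all genes were called, 2 were lower in zone 1, Ahr, the aryl hydrocarbon receptor, 5.63-fold (log2 fold change -2.49, SE 0.174) and Nr1i3, a xenobiotic receptor, 1.96-fold (-0.97, SE 0.238). Of 13 enzymes that make the conjugates, 0 passed from NP to dpc16, where 3.08% of all genes did, whereas between zones 5 were lower and 1 higher in zone 1, against the same 5.59%. Gstm1 was 2.79-fold lower (log2 fold change -1.48, SE 0.270), Gsta3 2.46-fold lower (-1.30, SE 0.281) and Ugt2b1 2.27-fold lower (-1.18, SE 0.246), and Ugt1a9 was higher by 2.07 on the log2 scale (SE 0.238).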

How the data were processed

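RNA of liver lobular zones 1, 2 and 3 of NP, dpc8 and dpc16 mice was measured by RNA-seq in 27 libraries (9 groups of 3, from the titles). The authors depleted ribosomal RNA, trimmed reads with cutadapt, mapped them to mm10 with HISAT2 2.1.0 (single-end, 86 bases), kept uniquely mapped reads and deposited FPKM values per protein-coding gene, computed with Cufflinks 2.2.1 and GENCODE annotation. FPKM are normalized and not counts, so log2(FPKM + 1) was tested with limma 3.58.1 in R 4.3.3 (trend and robust, one mean per group, all 27 libraries, two-sided, Benjamini-Hochberg adjustment per comparison, threshold 0.05), for genes that reached 1 FPKM in 3 or more libraries. Stage averages used the mean over zones of each stage and number. Exact FPKM values of 0 can be failed estimates. The number and depth of the libraries limit the precision.

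The members and gene lists were chosen with earlier results of these data known. All 10 members were named, with full statistics where they passed or were nearest to the threshold, and from each further list up to 4 genes past the threshold with the largest change. The 5 genes most like Abcc3 were those with the highest correlation. Replicate numbers recur in every group. At dpc16, all 9 correlations between deviations of same-numbered libraries of different zones exceeded 0.1 (0.306 to 0.884), and at NP and dpc8, 4 and 5 of 9 did. The main model had no block, and a block by number was run as an alternative, given beside a result where it changed the call. Alternatives covered the pseudocount (0.1), the filter, scaling to the FPKM sum, quantile normalization, array weights, a replicate block, a connective tissue covariate, only the groups compared, and leaving out each library or the Y-positive libraries. Median-ratio factors were computed only to describe the scaling of the columns.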

Additional observations from a re-analysis of the deposited data

How the results depend on the processing

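No called value of a member changed direction under any alternative run. The number of the 10 members called between zones 1 and 3 averaged over the stages (2) was 1 with a pseudocount of 0.1, no filter, quantile normalization, only the groups compared or the replicate block (Abcc4 remained in each), 3 with scaling to the FPKM sum or without the Y-positive libraries (Abcc2, Abcc4 and Abcg8 in both), 4 with array weights, and 0 to 2 when 1 library was left out. Between zones within a stage (0 called), it was 1 in NP without the Y-positive libraries or with the connective tissue covariate, 1 in dpc8 with quantile normalization, array weights, the covariate or the replicate block, which paired libraries by number, and 1 in dpc16 with array weights. The block changed no other call.

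From NP to dpc16 (1 called in each zone), array weights gave 3, 4 and 2 in zones 1, 2 and 3, scaling to the FPKM sum gave 4 in zone 2, the covariate 2 in zone 2, leaving out the Y-positive libraries 2 in zone 3, and fitting only the groups compared 0 in zone 3. From dpc8 to dpc16 (1 in each zone), array weights gave 2 in each zone, scaling to the FPKM sum 4 in zones 1 and 2, the covariate 2 in zones 2 and 3, leaving out the Y-positive libraries 2 in zone 3, only the groups compared 0 in zone 2, and leaving out 1 library 1 to 2 in zone 3. Averaged over the zones (2 called from NP and 2 from dpc8), the counts were 4 and 5 with scaling to the FPKM sum, 1 and 1 with only the groups compared, 0 and 0 without the Y-positive libraries, where 4 units remained (1 of NP, 1 of dpc8 and 2 of dpc16), and 1 to 2 when 1 unit was left out. Array weights gave 4 from dpc8. With 27 libraries as units and without the Y-positive libraries, an alternative chosen after seeing the data, 4 were called from NP. The cause of these differences was not tested. No member was called from NP to dpc8 under any alternative.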
